A study of Homo sapiens with 9 samples.

Results

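Expression of 9 genes that write, maintain, read or remove DNA methylation was compared in 3 related human breast epithelial cell lines. The genes were taken by symbol from a table of 62666 genes. They were the DNA methyltransferases DNMT1, DNMT3A and DNMT3B, the maintenance cofactor UHRF1, the dioxygenases TET1, TET2 and TET3, the DNA glycosylase TDG and the methyl-CpG-binding protein MBD2. All 9 were present, each in 1 row, and all 9 passed the filter on low counts that left 17910 genes for testing. Polyadenylated RNA was sequenced with a stranded kit in 3 replicate libraries of each line. MCF10A is an immortalised mammary epithelial line that does not form tumours, grown in medium with 5% horse serum. MCF10AT1 descends from MCF10A cells given activated HRAS, serves as a model of premalignant disease and was grown in 2.5% horse serum. MCF10Ca1a belongs to the same lineage, forms tumours in mice and was grown in 5% horse serum. All 3 media contained insulin, epidermal growth factor, hydrocortisone and cholera toxin. The study set the lines side by side as stages of breast cancer progression. Each stage is represented by a single line, and serum and line cannot be told apart in comparisons that include MCF10AT1. The labels do not say whether the replicates were separate cultures, so p-values measure the spread between these libraries, which may be technical.

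DNA methylation at CpG sites is copied after replication by DNMT1. UHRF1 binds hemimethylated DNA and recruits DNMT1 to it. DNMT3A and DNMT3B methylate sites that carried no mark before. TET enzymes oxidise 5-methylcytosine with 2-oxoglutarate and iron, and TDG cuts out the more oxidised forms so that base excision repair can restore cytosine. MBD2 binds methylated CpG and brings in the NuRD repressor complex. In mammary epithelium, as in other dividing tissues, DNMT1 and UHRF1 are known to be expressed mainly in cycling cells.

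Library totals ran from 32.9 to 69.5 M (mega) estimated counts. The 3 MCF10Ca1a libraries held 32.9 to 35.2 M and were the shallowest, so low genes were measured with less precision in that line. No pair of libraries held identical values. MCF10A replicate 1 stood apart from the other MCF10A libraries: the chi-square per degree of freedom of its counts was 32.4 against replicate 2 and 75.5 against replicate 3, compared with 11.7 between replicates 2 and 3. MCF10AT1 replicate 3 also stood apart, at 14.8 and 17.2 against replicates 1 and 2, compared with 3.60 between those. The mammary epithelial label was checked against markers. Epithelial genes were abundant in every library, with KRT18 at 221 to 718 TPM (a level per transcript length, scaled to a fixed library total) and CDH1 at 33.4 to 238 TPM. CD3E was at 0 throughout, and PTPRC, CDH5, VWF and COL1A2 were at or near 0, with a highest value of 0.0377 TPM. Other markers differed between lines. KRT5 was at 1210 to 1698 TPM in MCF10A and 411 to 426 TPM in MCF10Ca1a, KRT19 at 0.0294 to 0.0802 and 6.78 to 7.74 TPM, PECAM1 at 0.554 to 0.740 and 15.6 to 20.8 TPM, and CD68 at 8.33 to 13.0 and 30.1 to 33.0 TPM. The immune marker CD14 went the other way from CD68, at 7.58 to 9.41 and 0.140 to 0.281 TPM. The endothelial marker KDR went the other way from PECAM1, at 0.119 to 0.159 and 0 to 0.00691 TPM. The 5 immune markers summed to 15.9 to 22.4, 6.04 to 6.60 and 30.3 to 33.3 TPM in MCF10A, MCF10AT1 and MCF10Ca1a, the 4 endothelial markers to 0.674 to 0.901, 0.868 to 1.32 and 15.6 to 20.8 TPM, and the 6 fibroblast markers to 6.43 to 7.23, 27.6 to 31.5 and 1.93 to 2.32 TPM. CD68, CD14, PECAM1, COL1A1 and DCN made up most of these sums, and their part in the results was not tested.

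The promoter sequences below are shown for UHRF1, which fell most of the 9 genes apart from DNMT3B, and for TET3, which rose most. They are reference sequences from RefSeq (GRCh38.p14), 5′ to 3′ on the gene's strand. Capitals mark matches to letters bound by E2F factors (TTTCCCGC, TTTGGCGC, TTTCGCGC or TTTGCCGC) or to the CCAAT letters bound by NF-Y, searched on both strands. UHRF1 has several annotated starts. The upstream window of the start at chr19:4909501 lies beside the start of transcript UHRF1-207, which GENCODE 29 places at chr19:4909498. Its last 71 bases overlap an annotated exon and are left out, so chr19:4909251-4909429 is printed. The window of the start at chr19:4910144 is printed whole, as chr19:4909894-4910143. For TET3, the window chr2:73984660-73984909 lies upstream of the start at chr2:73984910.
UHRF1, start at 4909501: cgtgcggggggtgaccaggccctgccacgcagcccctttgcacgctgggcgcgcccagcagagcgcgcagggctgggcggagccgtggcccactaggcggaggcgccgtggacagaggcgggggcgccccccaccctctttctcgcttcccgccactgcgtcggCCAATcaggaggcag
UHRF1, start at 4910144: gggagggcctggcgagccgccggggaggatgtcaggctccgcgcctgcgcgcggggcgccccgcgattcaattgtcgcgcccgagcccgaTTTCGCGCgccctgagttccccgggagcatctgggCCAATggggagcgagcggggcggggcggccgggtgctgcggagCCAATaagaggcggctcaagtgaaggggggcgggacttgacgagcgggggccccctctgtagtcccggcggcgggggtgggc
TET3, start at 73984910: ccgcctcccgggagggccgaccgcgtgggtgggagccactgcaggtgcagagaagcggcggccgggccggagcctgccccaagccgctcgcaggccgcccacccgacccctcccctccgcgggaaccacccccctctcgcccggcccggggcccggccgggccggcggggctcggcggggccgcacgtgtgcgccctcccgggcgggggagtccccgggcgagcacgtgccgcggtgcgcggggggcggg
The second UHRF1 window holds TTTCGCGC at 160 to 153 bases before the start and 2 copies of CCAAT. In the first, CCAAT lies 86 to 82 bases before the start, and GCGGGAAA, an E2F match on the other strand, lies 14 to 7 bases before it, within the part left out. The TET3 window printed holds no match to either set of letters, and it holds 37 CpG dinucleotides in 250 bases. Windows not printed differ from these: that of the TET3 start at chr2:74002692 holds 1 CCAAT match on the other strand, 57 to 53 bases before the start, and that of the UHRF1 start at chr19:4910367 holds no match. Over 35116 RefSeq windows of 250 bases upstream of a start, 2.79% held an E2F match, 32.0% held CCAAT and 1.02% held both. The 9 genes had 20 windows in all, of which 2 held an E2F match, both of UHRF1, and 7 held CCAAT. A match describes the letters only.

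In MCF10Ca1a, 7 of the 9 genes were lower than in MCF10A and 2, TET3 and DNMT3A, were higher. All 9 passed an adjusted p of 0.05 (edgeR's quasi-likelihood test, Benjamini-Hochberg over all genes tested), in a comparison in which 80.9% of all genes passed, 39.0% higher and 41.9% lower. Of the 9 genes, 6 changed at least 2-fold, 5 of them downward and TET3 upward, beside 21.7% of all genes called at least 2-fold lower and 21.2% at least 2-fold higher. The lines did not overlap in CPM (counts scaled to library size) for 9 of the 9, beside 81.5% of all genes. Their median log2 change was −1.03, against −0.05 for all genes tested. In MCF10AT1 against MCF10A, 8 passed, 1 higher (DNMT3A) and 7 lower, beside 61.6% of all genes, 29.8% higher and 31.8% lower. Changes at this step were smaller, with a median of −0.35 against −0.00 for all genes, and of the 9 genes DNMT3B alone changed at least 2-fold, downward, beside 8.64% of all genes at least 2-fold lower and 9.36% at least 2-fold higher. The lines did not overlap for 8 of the 9, beside 65.4% of all genes. In MCF10Ca1a against MCF10AT1, 8 passed, 1 higher (TET3) and 7 lower, beside 78.4% of all genes, 38.0% higher and 40.3% lower. The median there was −0.63 against −0.04 for all genes, and 4 of the 9 changed at least 2-fold, 3 of them downward, beside 19.5% of all genes at least 2-fold lower and 18.2% at least 2-fold higher. The lines did not overlap for 8 of the 9, beside 81.9%. For the same comparison on the log2(TPM + 1) scale, limma called 5 of the 8 genes its filter kept, with DNMT3A and TET3 higher and DNMT1, DNMT3B and UHRF1 lower, and TET2, TDG and MBD2 were not called. Of all genes in that fit 77.9% were called, 47.6% higher and 30.3% lower. In edgeR, the median size of change regardless of direction (absolute log2) was closer to that of all genes at the separate steps. It was 0.35 beside 0.38 for all genes in MCF10AT1 against MCF10A, and 0.77 beside 0.76 in MCF10Ca1a against MCF10AT1. In MCF10Ca1a against MCF10A it was 1.07 beside 0.84. The 3 comparisons share libraries, so their values are given side by side and are not independent of each other. In these bulk RNA libraries, fewer cells with a transcript and less of it per cell cannot be told apart.

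**Figure D1:**
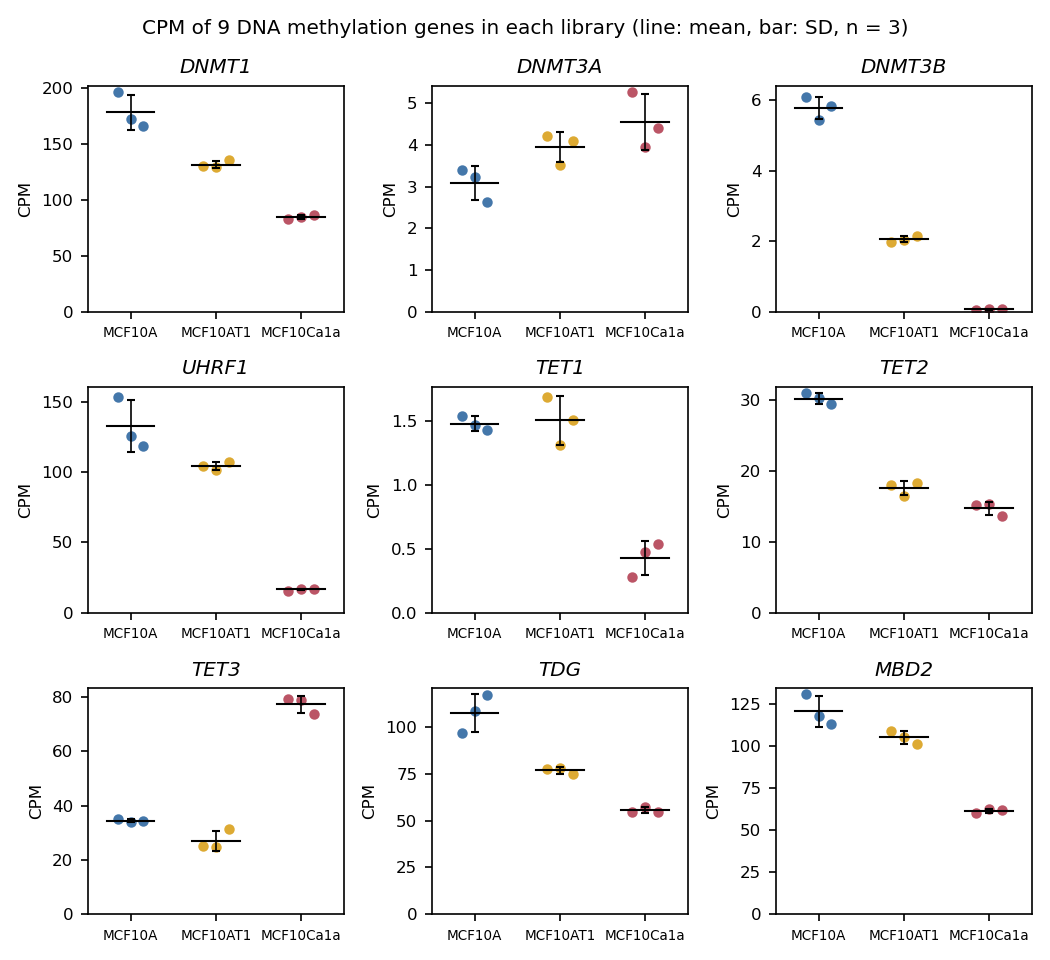
Counts scaled to library size (CPM, vertical axes, each from 0) of the 9 genes in each of the 9 libraries, grouped by line, with points for libraries, a line for the mean and a bar for the SD of 3 replicates. UHRF1 and DNMT3B are lowest in MCF10Ca1a, where DNMT3B lies at or below 0.0892 CPM, and TET3 is highest there, at 73.6 to 79.2 CPM.

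**Figure D2:**
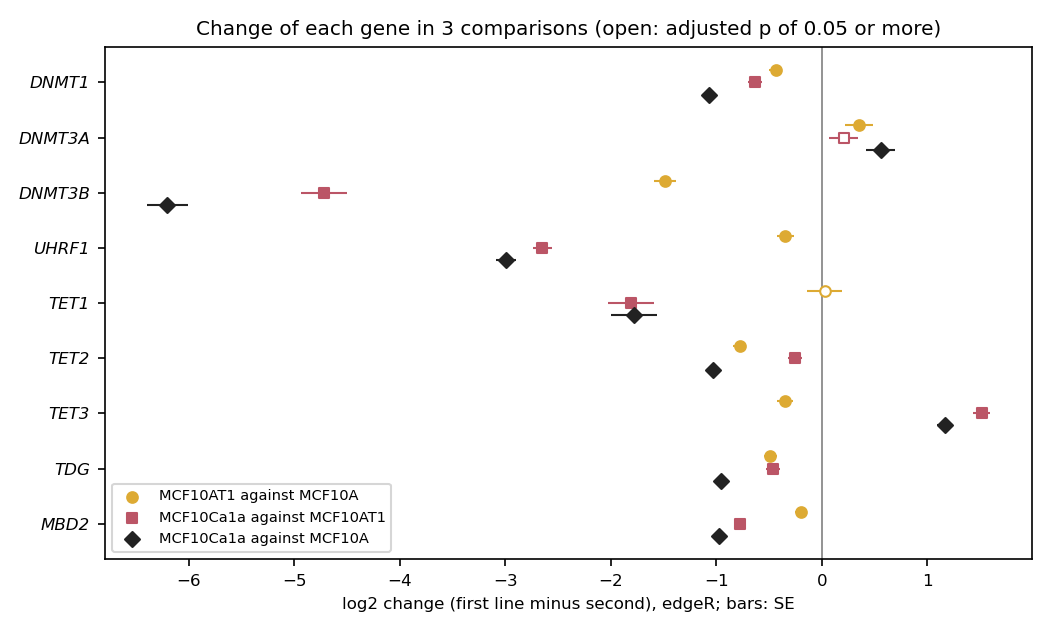
Log2 change (horizontal axis) of each of the 9 genes in 3 comparisons, from edgeR, with SE bars; open symbols mark an adjusted p of 0.05 or more. TET3 is the gene called with opposite signs at the consecutive steps, −0.35 and 1.51, and the open symbols are TET1 in MCF10AT1 against MCF10A and DNMT3A in MCF10Ca1a against MCF10AT1.

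DNMT1 (chr19:10133345-10231286, minus strand, GENCODE 29 on GRCh38), the maintenance methyltransferase, measured 197, 173 and 167 CPM in the MCF10A libraries. It measured 131, 129 and 136 CPM in MCF10AT1 and 83.3, 84.6 and 87.2 CPM in MCF10Ca1a. The lines did not overlap, and DNMT1 stepped down along the series. CPM means were 179 ± 15.8, 132 ± 3.33 and 85.0 ± 1.95 (SD, n = 3). Its log2 change was −0.44 (SE 0.06, edgeR adjusted p = 3.13e-05) in MCF10AT1 and −1.07 (SE 0.06, edgeR adjusted p = 1.37e-09) in MCF10Ca1a, both against MCF10A. Between MCF10Ca1a and MCF10AT1 it was −0.63. That call was lost on the log2(TPM + 1) scale without a filter (−0.45, limma adjusted p = 0.0849) and held in the filtered fit on that scale (limma adjusted p = 0.0276). MCF10A replicate 1 was the highest library for DNMT1 on either scale, with 63.1 TPM against 39.1 and 36.9 in the others. Its gap to them was wider in TPM than in CPM and enters the sums and ratios of DNMT1 TPM given below. Without MCF10A replicate 1 the DNMT1 changes against MCF10A were −0.36 and −1.01.

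UHRF1 (chr19:4903080-4962154, plus strand), the hemimethyl-CpG reader whose promoter sequences are given above, fell far more than DNMT1 in the malignant line. It measured 153, 125 and 119 CPM in MCF10A and 104, 101 and 107 CPM in MCF10AT1. In MCF10Ca1a it measured 15.9, 16.8 and 17.2 CPM. The MCF10Ca1a libraries thus lay far below all 6 others, whereas MCF10AT1 lay just under MCF10A. The fall from MCF10A to MCF10Ca1a was 7.96-fold (log2 change −2.99, SE 0.09, edgeR adjusted p = 1.42e-12). Most of it lay between MCF10AT1 and MCF10Ca1a, with a log2 change of −2.65 (SE 0.09), compared with −0.34 (SE 0.08) between MCF10A and MCF10AT1. That smaller change was −0.22 without MCF10A replicate 1, and its call held. Per length, UHRF1 stood at 0.835 ± 0.0856 of the DNMT1 TPM in MCF10A, 0.911 ± 0.0208 in MCF10AT1 and 0.248 ± 0.0126 in MCF10Ca1a (SD, n = 3). Estimated counts of UHRF1 were whole, within 0.01, in 1 of 9 libraries and those of TDG in 0 of 9, as happens where reads are divided between genes. Counts of the other 7 genes were whole in all 9.

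DNMT3B (chr20:32762385-32809356, plus strand), a de novo methyltransferase, fell close to the detection limit in MCF10Ca1a. The MCF10A libraries held 390, 353 and 407 DNMT3B counts, the MCF10AT1 libraries 133, 136 and 134, and the MCF10Ca1a libraries 2, 3 and 3. The 3 lines were separate, and the fall was in 2 steps. From MCF10A to MCF10AT1 DNMT3B dropped 2.80-fold (log2 change −1.48, SE 0.10, edgeR adjusted p = 3.26e-08). The ratio of summed counts, scaled by library size, was 75.9 for MCF10A over MCF10Ca1a, with a 95% interval of 38.4 to 176. For MCF10AT1 over MCF10Ca1a it was 27.1, with an interval of 13.6 to 63.2. Both exact intervals come from counts pooled over the 3 libraries of each line, so they leave out the spread between libraries. They also treat reads as independent molecules, although the reads carry no molecular identifiers, and may be too narrow.

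DNMT3A (chr2:25227855-25342590, minus strand), the other de novo methyltransferase, moved little and in the opposite direction. It measured 3.40, 3.24 and 2.64 CPM in MCF10A, 4.21, 3.53 and 4.09 CPM in MCF10AT1, and 5.28, 3.95 and 4.40 CPM in MCF10Ca1a. In CPM, MCF10A lay below the other lines, which overlapped each other. The log2 change was 0.56 (SE 0.14, edgeR adjusted p = 0.00201) in MCF10Ca1a against MCF10A and 0.35 (SE 0.13, edgeR adjusted p = 0.0339) in MCF10AT1 against MCF10A. The former call was lost with the authors' scaled counts (0.44, edgeR adjusted p = 0.0530) and held on the log2(TPM + 1) scale, where the change was 0.30 (limma adjusted p = 0.00484). The latter call was lost in 9 of 20 alternatives. Among them were the fits without MCF10A replicate 2 or 3 or without MCF10AT1 replicate 1 or 3, with adjusted p of 0.0513, 0.129, 0.111 and 0.0935, and on the TPM scale the change was 0.01 to 0.02. Between MCF10Ca1a and MCF10AT1 the change was 0.21, with a 95% interval of −0.06 to 0.47. In TPM these lines did not overlap for DNMT3A, at 0.714 to 0.916 in MCF10AT1 and 1.14 to 1.36 in MCF10Ca1a. Limma called that rise in all 3 fits on TPM, with 0.29 on the log2(TPM + 1) scale (adjusted p = 0.00615, and 0.0177 without a filter) and 0.52 on the log2(TPM + 0.1) scale (adjusted p = 0.00949). All genes also shifted upward in the filtered fits, with medians of 0.18 on the log2(TPM + 1) scale and 0.21 on the log2(TPM + 0.1) scale. Without a filter the median of all genes was 0.01.

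The balance of the de novo enzymes shifted with these changes. DNMT3B made up 73.4% ± 2.31 of the summed DNMT3A and DNMT3B TPM in MCF10A, 47.1% ± 4.27 in MCF10AT1 and 3.03% ± 1.33 in MCF10Ca1a (SD, n = 3). DNMT1 remained the main methyltransferase transcript per length in every line, at 93.4%, 94.8% and 94.2% of the TPM summed over the 3 DNMT genes. DNMT3L, a catalytically inactive cofactor of the de novo enzymes, had 0 counts in all 9 libraries.

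TET3 (chr2:73986404-74108176, plus strand), the eraser whose promoter sequence is given above, had the largest rise among the 9 genes. It measured 35.1, 33.9 and 34.3 CPM in MCF10A, and 25.2, 24.7 and 31.3 CPM in MCF10AT1. In MCF10Ca1a it measured 79.2, 79.1 and 73.6 CPM. MCF10AT1 was the lowest line and MCF10Ca1a the highest, with no overlap. TET3 fell by 0.35 on the log2 scale (SE 0.08, edgeR adjusted p = 0.00154) from MCF10A to MCF10AT1 and was 2.86-fold higher in MCF10Ca1a than in MCF10AT1 (log2 change 1.51, SE 0.08, edgeR adjusted p = 4.58e-10). Without MCF10AT1 replicate 3, the highest TET3 library of its line, these changes were −0.46 and 1.62. Against MCF10A, MCF10Ca1a was 2.25-fold higher. Among all genes tested, 88.4% had a lower change than TET3 in MCF10Ca1a against MCF10AT1.

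TET2 (chr4:105145875-105279816, plus strand) fell mainly at the first step. It measured 30.9, 30.2 and 29.3 CPM in MCF10A, 18.0, 16.4 and 18.3 CPM in MCF10AT1, and 15.1, 15.3 and 13.7 CPM in MCF10Ca1a. MCF10A was well above the other lines, which did not overlap but lay close together. The log2 change was −0.78 (SE 0.06, edgeR adjusted p = 7.26e-08) in MCF10AT1 against MCF10A. The further change in MCF10Ca1a was −0.25 (SE 0.06, edgeR adjusted p = 0.00252), which on the TPM scale was −0.02 to −0.03 and was not called.

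TET1 (chr10:68560656-68694482, plus strand), the dioxygenase best known from embryonic stem cells, was the lowest of the TET genes. The MCF10A libraries held 99, 95 and 100 TET1 counts, the MCF10AT1 libraries 113, 87 and 94, and the MCF10Ca1a libraries 10, 16 and 19. MCF10A and MCF10AT1 overlapped, and MCF10Ca1a lay below both. The log2 change was −1.78 (SE 0.22, edgeR adjusted p = 4.15e-06) in MCF10Ca1a against MCF10A and −1.81 (SE 0.22, edgeR adjusted p = 3.86e-06) against MCF10AT1. Between MCF10AT1 and MCF10A it was 0.03, with a 95% interval of −0.31 to 0.36.

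Per length, the TET transcripts changed in make-up. TET2 was 55.1% ± 0.243 of the summed TET TPM in MCF10A, 47.9% ± 2.31 in MCF10AT1 and 21.9% ± 0.559 in MCF10Ca1a (SD, n = 3). TET3 went from 42.1% ± 0.256 and 47.9% ± 2.82 to 77.4% ± 0.370, and TET1 from 2.82% ± 0.0437 and 4.16% ± 0.520 to 0.663% ± 0.228. TET3 was therefore the leading TET transcript in MCF10Ca1a, while TET2 led in MCF10A and the pair stood level within their spread in MCF10AT1. The summed TPM of the 3 TET genes was 7.94 to 9.25 in MCF10A, 4.88 to 5.81 in MCF10AT1 and 10.7 to 11.8 in MCF10Ca1a. The summed DNMT TPM over the summed TET TPM was 7.21, 4.99 and 5.05 in the MCF10A libraries. It was 5.75, 6.23 and 5.41 in MCF10AT1 and 1.77, 2.01 and 2.18 in MCF10Ca1a, so the MCF10Ca1a libraries lay below all the others. These ratios compare transcripts and say nothing of enzyme activity.

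**Figure D3:**
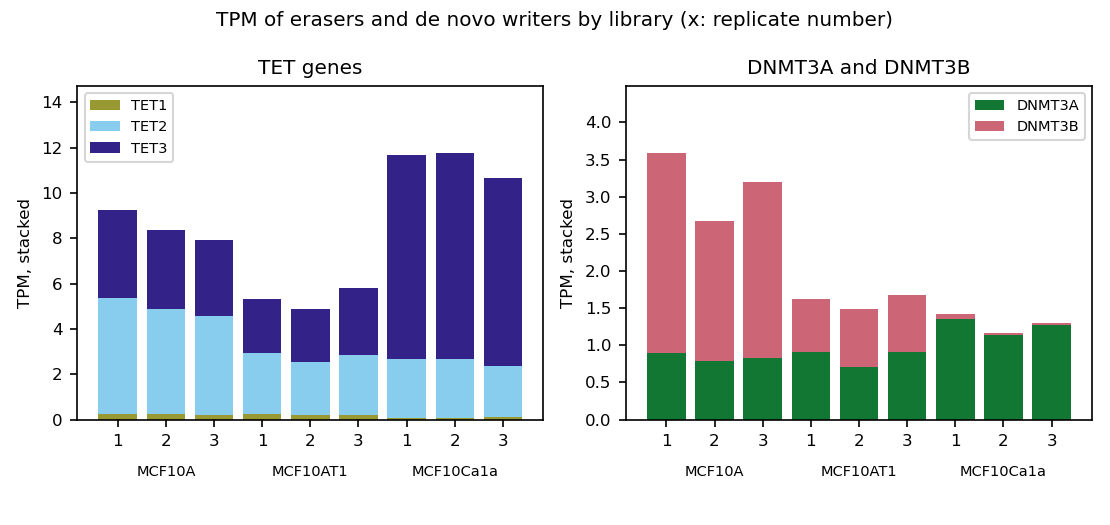
Stacked TPM (vertical axes) of the 3 TET genes (left) and of DNMT3A and DNMT3B (right) in each library, with the replicate number and line on the horizontal axis. TET3 takes up 77.2% to 77.9% of the TET total in the MCF10Ca1a libraries, and the DNMT3B segment is at most 4.54% of the de novo total there.

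TDG (chr12:103965804-103988874, plus strand), the glycosylase that removes oxidised 5-methylcytosine, measured 97.1, 109 and 117 CPM in MCF10A. It measured 77.7, 78.1 and 75.0 CPM in MCF10AT1 and 54.9, 57.6 and 54.7 CPM in MCF10Ca1a. It stepped down without overlap between lines. The log2 change was −0.49 (SE 0.06, edgeR adjusted p = 1.49e-05) in MCF10AT1 and −0.95 (SE 0.06, edgeR adjusted p = 6.94e-09) in MCF10Ca1a, both against MCF10A. MBD2 (chr18:54151601-54224788, minus strand), the methyl-CpG reader, measured 131, 118 and 113 CPM in MCF10A, 109, 105 and 102 CPM in MCF10AT1, and 60.3, 62.6 and 62.1 CPM in MCF10Ca1a. In CPM the MCF10AT1 libraries lay just below MCF10A for MBD2 and the MCF10Ca1a libraries far below. In TPM of the whole gene the larger step was the first, with MBD2 at 77.2 ± 11.6, 56.5 ± 5.46 and 47.9 ± 2.34 (SD, n = 3). Its coding transcript MBD2-201 fell at both steps without overlap, at 38.3 to 49.4, 32.4 to 36.1 and 22.1 to 22.8 TPM. The transcript MBD2-203, whose shares are given below, was at 12.8 to 16.8, 10.1 to 11.2 and 12.1 to 12.7 TPM. The log2 change of MBD2 was −0.20 (SE 0.06, edgeR adjusted p = 0.0102) in MCF10AT1 and −0.97 (SE 0.06, edgeR adjusted p = 2.49e-09) in MCF10Ca1a, both against MCF10A. In MCF10Ca1a against MCF10AT1, TDG and MBD2 changed by −0.46 and −0.77 on the CPM scale. On the log2(TPM + 1) scale those values were −0.11 and −0.23 and neither was called (limma adjusted p = 0.0907 and 0.0669). In MCF10AT1 against MCF10A the MBD2 change on the log2(TPM + 1) scale was −0.44 (limma adjusted p = 0.00462). The median of all genes in MCF10Ca1a against MCF10AT1 was 0.18 on that scale, against −0.04 for counts.

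Transcript shares could be tested for 6 of the 9 genes, since TET1, TET3 and TDG had fewer than 2 transcripts above the filter (5% of the gene's counts and a mean of 10). Shares changed in UHRF1 and MBD2 in both comparisons with MCF10Ca1a, beside 47.1% of 8824 genes called against MCF10A and 40.5% against MCF10AT1. With transcripts of at least 1% of their gene kept, TDG could also be tested, and limma called 5 genes against MCF10A, adding DNMT1, TET2 and TDG (limma adjusted p = 0.00759, 0.0131 and 0.00648). Against MCF10AT1 it then called 4, adding DNMT1 and TDG (limma adjusted p = 0.00487 and 0.00451). Of the 10659 genes tested with that filter, 49.5% were called against MCF10A and 42.1% against MCF10AT1. No gene of the 6 was called in MCF10AT1 against MCF10A (limma), beside 11.0% of genes. There, 1 of the 6 had an unadjusted Simes p under 0.05, and edgeR's diffSpliceDGE called 0. UHRF1-207 (ENST00000624301.3), the transcript that starts beside the printed window with its start at 4909501, held 16.3%, 22.5% and 24.6% of UHRF1 counts in MCF10A. It held 18.0%, 6.70% and 4.90% in MCF10AT1, and 0 counts were assigned to it in all 3 MCF10Ca1a libraries. The replicates of MCF10AT1 thus differed more than those of the other lines. ENST00000650932.1, a UHRF1 transcript without a name in the annotation used here, took 69.7% to 77.2% in MCF10A, 72.9% to 89.5% in MCF10AT1 and 90.4% to 94.1% in MCF10Ca1a. The adjusted Simes p for UHRF1 (limma on log2 ratios of each transcript to the gene's other transcripts) was 4.80e-05 against MCF10A and 1.69e-04 against MCF10AT1. Between MCF10AT1 and MCF10A it was 0.177, and 0.0142 without MCF10AT1 replicate 1.

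MBD2-203 (ENST00000578272.1), annotated as a target of nonsense-mediated decay, held 5.27% to 5.71% of MBD2 counts in MCF10A, 4.88% to 4.97% in MCF10AT1 and 8.27% to 8.65% in MCF10Ca1a. The coding transcript MBD2-201 held 92.3% to 92.7%, 93.0% to 93.4% and 88.2% to 89.1%. Per length its part was smaller, at 54.9% to 57.7%, 58.5% to 64.6% and 44.4% to 50.1% of MBD2 TPM. MBD2-203 then made up 18.8% to 19.8%, 17.9% to 20.2% and 25.6% to 26.8%. MCF10Ca1a did not overlap the other lines in either share. The adjusted Simes p for MBD2 in limma was 0.00112 against MCF10A and 6.91e-04 against MCF10AT1. The change in MBD2 was not called by edgeR's diffSpliceDGE, which called UHRF1 in both comparisons, beside 15.5% of all genes against MCF10A and 11.4% against MCF10AT1. Assignments within DNMT3A, DNMT3B and DNMT1 varied between replicates of a line. DNMT3A-202, for example, held 0, 63 and 95 counts in the MCF10Ca1a libraries. How certain each assignment was is not known from the files used.

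**Figure D4:**
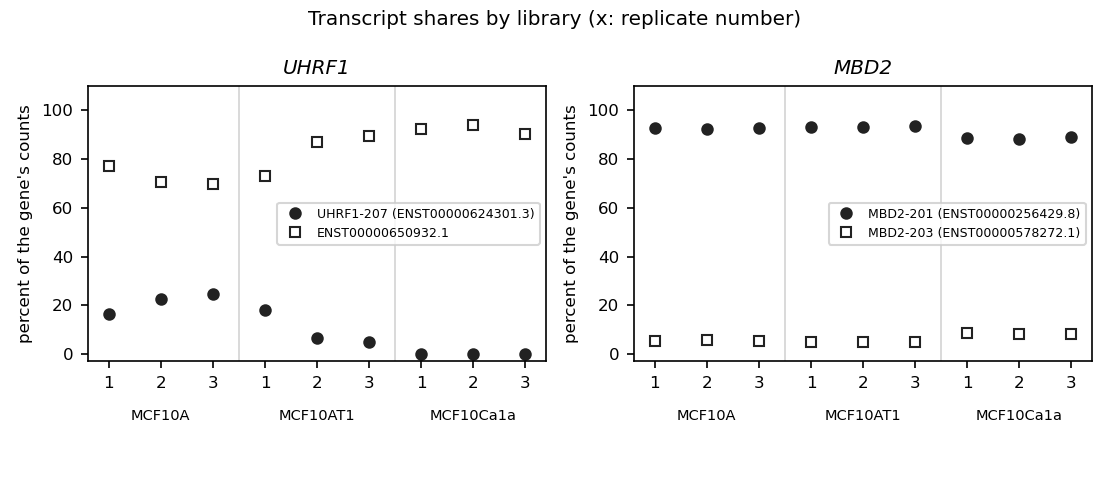
Percent of the gene's counts (vertical axis) held by each transcript of UHRF1 and MBD2 above the filter, in each library (replicate number and line on the horizontal axis). UHRF1-207 is at 0 in the MCF10Ca1a libraries, and MBD2-203 lies between 8.27% and 8.65% there.

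Genes of the cell cycle were lower in MCF10Ca1a. Of 16 proliferation genes, all 16 were lower in MCF10Ca1a than in either other line (edgeR, median log2 change −1.91 against MCF10A and −1.74 against MCF10AT1), and 15 or 16 were called under other scalings. Of all genes, 41.9% were lower against MCF10A and 40.3% against MCF10AT1, with medians of −0.05 and −0.04. In MCF10AT1 against MCF10A, 11 proliferation genes were lower and 1 was higher, beside 31.8% and 29.8% of all genes. PLK1, a mitotic kinase, fell most, by 3.70 on the log2 scale against MCF10A. It changed by −0.78 in MCF10AT1 against MCF10A and by −2.93 between MCF10Ca1a and MCF10AT1. MKI67, the gene of the Ki-67 antigen, changed by −0.42 in MCF10AT1 and −1.76 in MCF10Ca1a relative to MCF10A, and by −1.35 between MCF10Ca1a and MCF10AT1. The summed TPM of the 16 genes was 2393 to 2598 in MCF10A, 1718 to 1869 in MCF10AT1 and 621 to 627 in MCF10Ca1a. In MCF10Ca1a against MCF10A, 3 of the 16 had a lower change than UHRF1, 12 than DNMT1 and 0 than DNMT3B. Those with a lower change than TET1, TET2, TDG and MBD2 numbered 10, 12, 14 and 14. All 16 had a lower change than TET3 and DNMT3A, which rose. The part of these proliferation genes' change in the falls of DNMT1, UHRF1, DNMT3B, TET1, TET2, TDG and MBD2 was not tested.

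Of 7 partners of maintenance methylation, 5 were lower in MCF10Ca1a than in MCF10A and 0 higher (edgeR, median −0.99). Against MCF10AT1, 7 were lower and 0 higher, beside 40.3% and 38.0% of all genes. The number lower against MCF10AT1 was 6 with DESeq2 size factors and 6 in the DESeq2 Wald test. It was also 6 in limma on log2(TPM + 1), beside 30.3% of all genes. For this and the lists that follow, the shares of all genes in MCF10Ca1a against MCF10A were 39.0% higher and 41.9% lower, with a median of −0.05. CDCA7, which recruits the remodeller HELLS to hemimethylated DNA, fell by 2.40 against MCF10A and by 2.41 against MCF10AT1, and changed by 0.00 between MCF10AT1 and MCF10A. PCNA, the replication clamp that holds DNMT1 at the fork, changed by −1.70 in MCF10Ca1a and by 0.31 in MCF10AT1, both against MCF10A, and by −2.01 between MCF10Ca1a and MCF10AT1. UHRF2, the paralogue of UHRF1, was not called in MCF10Ca1a against MCF10A, with a log2 change of 0.04. It was named after its value was seen. In TPM the lines did not overlap for UHRF2, at 40.1 to 43.1 in MCF10A and 48.6 to 49.6 in MCF10Ca1a, and limma on log2(TPM + 1) called 1 of the 7 partners higher and 5 lower, beside 43.3% and 35.7% of all genes (79.0% in either direction).

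Among 7 other methyl-CpG readers, 3 were higher and 2 lower in MCF10Ca1a than in MCF10A (edgeR, median 0.10). ZBTB38, a zinc-finger reader, rose most, by 0.996, after a change of 0.38 in MCF10AT1 against MCF10A, and by 0.62 between MCF10Ca1a and MCF10AT1. MBD3, which resembles MBD2 but lacks its affinity for methylated DNA, fell most, by 0.74. It changed by −0.54 in MCF10AT1 against MCF10A and by −0.20 between MCF10Ca1a and MCF10AT1, and the last value was 0.15 on the log2(TPM + 1) scale. The 13 base excision repair genes divided into 7 higher and 6 lower in MCF10Ca1a against MCF10A (median 0.38). GADD45A, a stress-response gene reported to aid demethylation, rose by 2.57, and changed by 0.74 in MCF10AT1 against MCF10A and 1.84 between MCF10Ca1a and MCF10AT1. PARP1, the strand-break sensor, changed by −2.39, −1.54 and −0.85 in the same order of comparisons.

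The list of methyl donor and 2-oxoglutarate metabolism had 3 genes higher and 6 lower of 12 tested in MCF10Ca1a against MCF10A (median −0.32). MAT1A, the S-adenosylmethionine synthetase typical of liver, was low, at 175, 159 and 215 counts in the MCF10A libraries, 26, 32 and 10 in those of MCF10AT1, and 12, 16 and 10 in those of MCF10Ca1a. It changed by −2.98 in MCF10AT1 and −2.92 in MCF10Ca1a against MCF10A, and by 0.06 between the last pair. Of 13 tested partners of TET and DNMT3 proteins, 2 were higher and 8 lower in MCF10Ca1a than in MCF10A (median −0.57). EHMT1, a histone H3 lysine methyltransferase, rose by 0.64, with changes of 0.29 and 0.36 at the separate steps. On the log2(TPM + 1) scale the changes of ZBTB38 and EHMT1 in MCF10AT1 against MCF10A were 0.10 and 0.23, and limma called neither. ZFP57, which protects methylation at imprinted loci, had 75, 56 and 42 counts in the MCF10A libraries, 9, 5 and 10 in those of MCF10AT1, and 3, 2 and 5 in those of MCF10Ca1a.

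**Figure D5:**
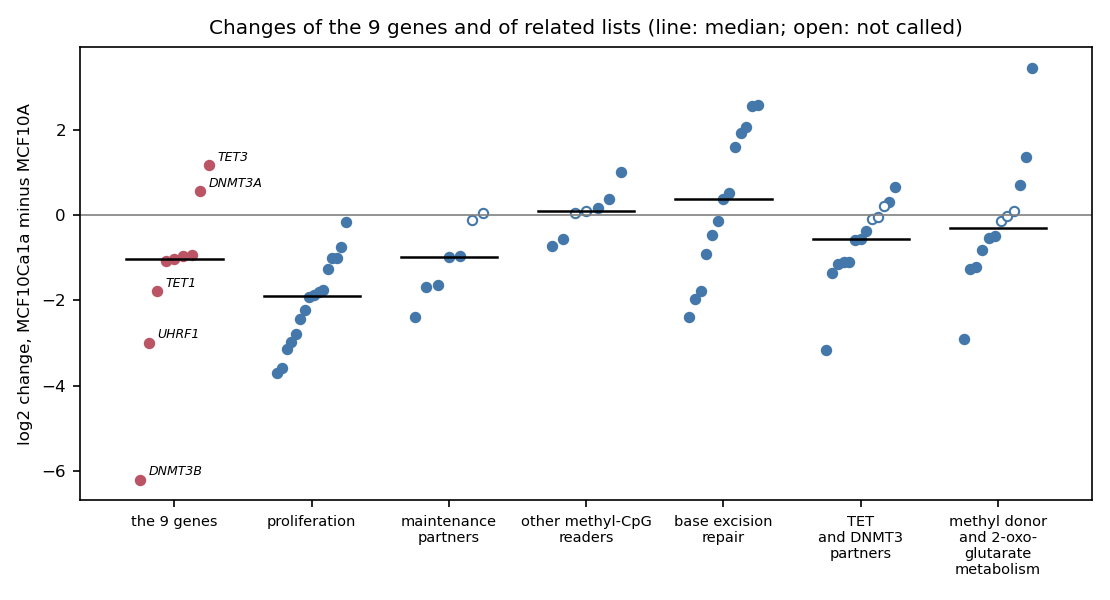
Log2 change in MCF10Ca1a minus MCF10A (vertical axis) of the 9 genes and of the tested genes of 6 related lists (horizontal axis), 1 point per gene, with a line for the list's median; open points were not called. All 16 proliferation genes lie below 0, and TET3 and DNMT3A are the members above 0.

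Genes known to depend on promoter methylation for silencing were also examined. Of 27 germline genes, 26 had at most 3 counts in every MCF10A library, 26 in every MCF10AT1 library and 24 in every MCF10Ca1a library. One of the 27, SSX1, passed the filter for testing. It had 0 counts in all MCF10A and MCF10AT1 libraries and 7, 7 and 10 counts in MCF10Ca1a, and SSX genes are similar enough that reads could be shared. SSX1 passed the filter only through MCF10Ca1a, so the direction of its edgeR call (higher) was fixed beforehand and nothing is drawn from it. Of 20 imprinted genes, 12 were tested, with 5 higher and 7 lower in MCF10Ca1a than in MCF10A (median −0.50). NAP1L5, which is imprinted and lies within an intron of HERC3, rose by 4.03, with 3.94 of this in MCF10AT1 against MCF10A and 0.09 between MCF10Ca1a and MCF10AT1. PLAGL1, an imprinted zinc-finger gene, changed by −4.46 in MCF10Ca1a and −1.10 in MCF10AT1 relative to MCF10A, and by −3.36 between MCF10Ca1a and MCF10AT1. DNA methylation was not measured in these libraries.

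The pattern of each of the 9 genes over the 9 libraries was set beside all other tested genes with a symbol, by the root mean square difference of centred log2 CPM. LMNB1, which encodes lamin B1, was nearest to UHRF1, at 0.0779 (Pearson r = 0.9997 over 9 libraries). LPP, a focal adhesion gene, was nearest to TET3, at 0.0679 (r = 0.995), and IP6K1, an inositol phosphate kinase gene, to DNMT1, at 0.0392 (r = 0.997). The nearest gene to DNMT3B was NEGR1, at 0.162, and the nearest to TET2 was NPEPL1, at 0.0509. Nearest to TET1, DNMT3A, TDG and MBD2 were THAP10 at 0.140, PRKCA at 0.0958, AZI2 at 0.0445 and TSR2 at 0.0351. Among the 9 genes themselves the closest pair was DNMT1 and MBD2, at 0.107, followed by DNMT1 and TDG, at 0.148, while DNMT1 and UHRF1 differed by 0.928. The libraries fall into 3 lines, so these values describe the order and spacing of 3 levels.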

How the data were processed

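Polyadenylated RNA of 3 lines was measured in 9 libraries. The authors deposited estimated counts per gene and per transcript, length-scaled and scaled gene counts, and TPM per gene and transcript. Quantification used Salmon with hg38, per the submitters' processing notes; the version and annotation are not given in the sources used here. Columns were assigned to libraries by their names and to lines by the labels.

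Deposited estimated counts were rounded. Genes were kept with edgeR's filterByExpr (minimum count 10, minimum total 15) and scaled with TMM. The test was edgeR 4.0.16 (R 4.3.3), quasi-likelihood, with all 9 libraries in 1 fit and Benjamini-Hochberg adjustment at 0.05 over all genes tested. CPM values use TMM-scaled totals, and an SE is the log2 change divided by the root of its F statistic. TPM values, as deposited by the authors, were used for levels between genes and, as log2(TPM + 1) or log2(TPM + 0.1), in limma 3.58.1. Transcripts with a mean of at least 10 counts and 5% of their gene were tested by limma on log2 ratios of each transcript to the gene's other transcripts (0.5 added), with Simes p per gene.

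The alternatives changed the size factors (DESeq2 1.42.0), the test (its Wald test, limma on TPM), the filter, the count table, the depth (thinning) and the libraries in the fit (each left out in turn, or the third line dropped), or added the replicate number as a block.

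The members and lists were chosen with earlier results of these data known. Named genes are the 9 members, the gene that rose and the gene that fell most of each list in MCF10Ca1a against MCF10A, MKI67 and PCNA, the nearest genes by pattern, and the transcripts above the filter. Marker genes are given by their TPM. Some genes that these rules name are not reported here. Positions are from GENCODE 29 on GRCh38.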

Additional observations from a re-analysis of the deposited data

How the results depend on the processing

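Of 534 values of single genes recomputed under alternatives, 508 kept their direction and their side of the threshold, 20 lost their call, 3 gained one (DNMT3A in MCF10Ca1a against MCF10AT1, in the 3 fits on TPM) and 3 changed sign. The 3 sign changes were all of TET1 in MCF10AT1 against MCF10A, a difference that was not called: −0.15 after thinning to the smallest library, −0.022 on the log2(TPM + 1) scale without a filter and −0.065 without MCF10AT1 replicate 1 (−0.065 to 0.12 over the fits without 1 library). The number of the 9 genes called in MCF10Ca1a against MCF10AT1 was 8, and it was 5 in limma on log2(TPM + 1), 5 on log2(TPM + 0.1) and 5 on log2(TPM + 1) without a filter, 2 higher and 3 lower in each. TET1 was not kept by the TPM filter and has no value in the filtered TPM fits. On the TPM scale the calls of all genes split differently: 38.8% of calls were lower in MCF10Ca1a against MCF10AT1, against 51.5% for counts, and 63.9% against 51.6% in MCF10AT1 against MCF10A. List medians in MCF10Ca1a against MCF10A moved too in limma on log2(TPM + 1). They were 0.37 for other methyl-CpG readers (4 higher, 2 lower of 7) and 0.56 for base excision repair (7 and 5 of 13). For methyl donor and 2-oxoglutarate metabolism the median was −0.15 (4 and 6 of 12), and for TET and DNMT3 partners −0.28 (1 and 5 of 10). The median of all genes was 0.08, with 43.3% higher and 35.7% lower. With each library left out in turn, 7 to 8 of the 9 genes were called in MCF10AT1 against MCF10A, and 9 and 8 in the other comparisons. The number of genes with changed transcript shares ranged from 0 to 1 in MCF10AT1 against MCF10A and from 2 to 3 in each comparison with MCF10Ca1a. With transcripts of at least 1% of their gene it was 5 against MCF10A and 4 against MCF10AT1, and with diffSpliceDGE it was 1 and 1. The cause of these differences was not tested.

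The replicate number as a block gave 8, 9 and 8 genes called and 0, 2 and 2 genes with changed shares, so it changed no count. The numbers did not pair the libraries: same-numbered libraries of different lines had correlated deviations of −0.06 to 0.05, others −0.07 to 0.10, and 1 of 9 libraries correlated best with its own number. MCF10Ca1a libraries limit the precision of DNMT3B and TET1, which had at most 19 counts there.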
